A study of Rattus norvegicus with 6 samples.

Results

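The AMPA and NMDA receptor subunits are the proteins that build the main fast glutamate receptors of the brain. They were read here on 6 Agilent 2-colour arrays of rat hippocampal RNA. The genes are the 4 AMPA receptor subunits Gria1, Gria2, Gria3 and Gria4 and the 5 NMDA receptor subunits Grin1, Grin2a, Grin2b, Grin2c and Grin2d. All probes whose gene name on the array is one of these 9 names were taken, which gave 13 probes (6 of AMPA and 7 of NMDA subunits) of 41012 probes on the array. Gria2, Gria4, Grin1 and Grin2a have 2 probes each and the other 5 genes have 1.

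Male Wistar rats, 11 weeks old at the start, were assigned to 3 groups. CONT rats rested on the treadmill, ME rats ran at 15 m/min, below the lactate threshold, and IE rats ran at 40 m/min, above it. Running lasted 60 min per day on 5 days a week for 6 weeks, after habituation over 1 week for ME and 4 weeks for IE in the sample records, while the methods count the habituation within the 6 weeks. The habituation used slight electric shocks, and some IE rats also received brief foot shocks later, which ME rats did not. According to the sample records, brains were collected 24 or 36 h after the last session, and the methods of the study give a later time. RNA from the hippocampi of 5 rats per group was pooled. Each of the 3 possible pairs of pools (ME vs CONT, IE vs CONT, IE vs ME) was hybridized on an array and on another in which Cy3 and Cy5 were exchanged. In the sample records these 2 arrays are named as separate pools, whereas the methods describe a single pool per group. The methods were followed here, so that each comparison has 1 replicate and a test across rats was not possible.

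Glutamate released at an excitatory synapse opens both receptor types. AMPA receptors are tetramers that carry the fast current, and GluA2, the product of Gria2, decides whether they let calcium through. NMDA receptors contain GluN1, the product of Grin1, together with GluN2 subunits, and admit calcium when glutamate binds while the cell is depolarized, which is the first step of long-term potentiation at hippocampal synapses. Gria1, Gria2, Gria3, Grin2a and Grin2b are the subunits abundant in forebrain principal neurons. Gria4 and Grin2c are best known from the cerebellum, Grin2c from its granule cells, and Grin2d from the brain stem, thalamus and interneurons.

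All 60-base probes are from the array's design. The probe of Gria1 and 1 of the 2 probes of Gria4 are similar in sequence. Whether they read matching exons of the 2 genes was not determined. Among the 78 pairs of subunit probes this pair was the most alike, with 36 identical bases over an ungapped overlap of 52 bases, while the next pair had 26. They are shown because their readings can be set side by side, with the identical bases in capitals. Sequences are written 5′ to 3′. The Gria4 probe lies at chr8:963017-963076 of rat build rn3 on the minus strand, and the array files give no position for the Gria1 probe.
Gria1, probe A_43_P15761: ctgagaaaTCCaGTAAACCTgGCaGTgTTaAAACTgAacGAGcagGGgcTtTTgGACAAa
Gria4, probe A_44_P349199: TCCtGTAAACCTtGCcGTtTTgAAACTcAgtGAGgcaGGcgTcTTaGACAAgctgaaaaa

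The 2 probes of Grin1 are shown because they differed in which dye they favoured, as described further on. The first 30 bases of each are given. Probe A_44_P240900 was designed on accession U08268 and maps over 1003 bases of the genome, chr3:3471906-3472908 (minus strand, rn3), which is longer than the probe itself. Probe A_44_P536333 was designed on NM_017010 and maps without a gap to chr3:3453883-3453942.
Grin1, probe A_44_P240900, bases 1 to 30: aggaactatgaaaacctcgaccaactgtcc
Grin1, probe A_44_P536333, bases 1 to 30: accagggagcgccatctgcctcccagtccg

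The Grin2c and Grin2d probes are shown as those of the cerebellar NMDA subunit and of the only member that could not be measured in every comparison. Grin2c is given by its first 30 bases, from chr10:105337753-105337812 (minus strand, rn3). Grin2d is given whole, from chr1:96387613-96387672 (minus strand, rn3), with G and C in capitals. Its G+C content was 81.7%, against a median of 43.3% over all probes, and only 13 probes on the array (0.0317%) reached that value.
Grin2c, probe A_42_P738337, bases 1 to 30: taggctggggtttcttttcataggggcatt
Grin2d, probe A_44_P425143: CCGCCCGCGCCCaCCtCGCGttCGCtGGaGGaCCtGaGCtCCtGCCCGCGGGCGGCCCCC

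The remaining members are identified by position in rn3, as the array files give it. The 2 Gria2 probes (A_44_P289630 and A_44_P289627) lie at chr2:172216995-172217054 and chr2:172216693-172216752, and the Gria3 probe (A_44_P449764) at chrX:3465270-3465329, all on the minus strand. The other Gria4 probe (A_44_P323349) lies at chr8:957385-957444 on the minus strand. The Grin2a probes (A_44_P475240 and A_44_P505902) lie at chr10:6005790-6005849 and chr10:6004472-6004531 on the plus strand, and the Grin2b probe (A_44_P308696) at chr4:172967545-172967604 on the minus strand. AMPA subunits exist in flip and flop splice forms, and which form a probe reads was not determined. A value given here for an AMPA subunit gene can therefore be that of a single form.

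Ratios are given as log2 of the first pool over the second, with the array that carries the first pool in Cy5 named first and the swapped array second. A mean ± SD is that of these 2 arrays (n = 2 arrays of 1 pair of pools), so the SD measures the hybridization and the dye and not the rats. The first array's ratio minus the second's, divided by 2, is called the dye part. It is the mean log2 of Cy5 over Cy3 of the 2 arrays, so it is positive when Cy5 was brighter on average. To count as up-regulated, a probe needed Cy5/Cy3 of 1.5 or more on the first array and of 0.75 or less on the swapped one, where the dyes trade places, and the reverse to count as down-regulated. The software's p had to be below 0.01 on both. That p compares 2 pools on 1 array. All 13 probes were well above background in both channels wherever a reading was kept, and 0 spots were saturated on each array. Between 66.5% and 74.4% of all spots were well above background. Of 8 listed hippocampal neuron markers, 6 were on the array. All 7 of their probes were well above background on the arrays against CONT. This detection cannot tell the hippocampus from other tissue. In ME vs CONT, 4 of 4 thalamic, 4 of 6 cerebellar and 5 of 9 choroid plexus marker probes were also well above background.

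None of the subunits was regulated with either intensity by these criteria. The count was 0 of 12 probes in ME vs CONT, where 0.122% of all probes were called, and 0 of 12 in IE vs CONT, where 0.0293% were called. It was 0 of 13 probes in IE vs ME, with 0.0732% called over all probes. Without the p threshold the counts of members stayed at 0, against 0.987%, 0.667% and 1.06% of all probes in the same order. At these background rates no called probe among 13 is the usual outcome for any 13 probes, so the count itself says nothing particular about the subunits. The lowest software p of any member, taken as the median over a probe's spots, was 0.0410, for Gria1 on the first IE vs CONT array. The lowest of its single spots there was 0.0222.

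The sizes were small next to the call limits, for which the ratio has to lie at least 0.58 from 0 on 1 array and 0.42 on the other, on the log2 scale and on the same side. The means of the members ran from -0.11 to 0.020 in ME vs CONT and from -0.26 to 0.022 in IE vs CONT. In IE vs ME they ran from -0.017 to 0.20. The median of their absolute means was 0.020, 0.072 and 0.068, beside 0.041, 0.045 and 0.048 for all probes well above background. Arrays that are 1 pool deep cannot show whether such differences exceed the spread between rats. In bulk tissue, a lower share of the cells that express a gene and less RNA per cell cannot be told apart.

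**Figure D1:**
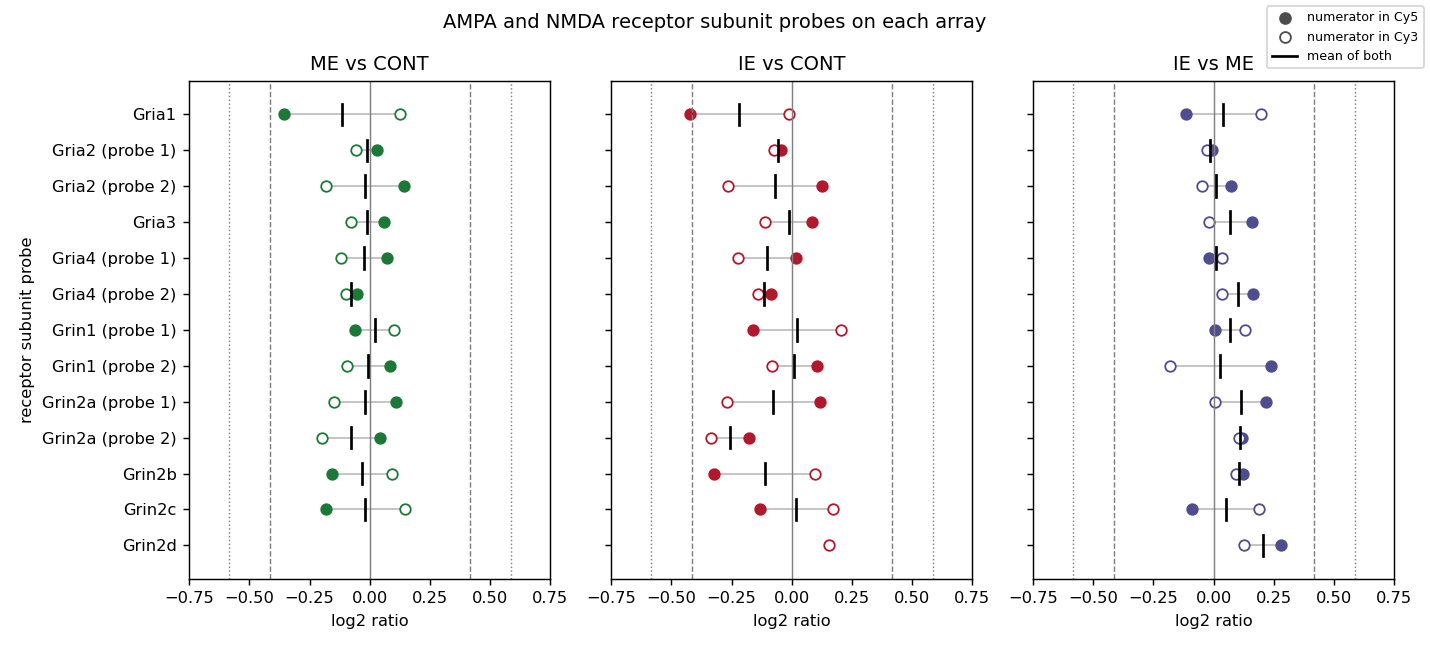
Log2 ratio (x axis) of each of the 13 subunit probes (y axis) in the 3 comparisons, with filled points for the array that carries the first-named pool in Cy5, open points for the swapped array, black bars for the mean of both, and lines at the call limits, 0.42 (dashed) and 0.58 (dotted) from 0. Probe 1 is A_44_P289630 for Gria2, A_44_P323349 for Gria4, A_44_P240900 for Grin1 and A_44_P475240 for Grin2a. The points of a pair lie on opposite sides of 0 for 11 of 12 probes in ME vs CONT, and Grin2d has 1 point in IE vs CONT and none in ME vs CONT because its spot was marked as non-uniform.

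Among the AMPA subunits, Gria1, which encodes GluA1, the subunit whose insertion into synapses accompanies potentiation, showed the widest gap between dye-swapped arrays of any member in ME vs CONT. Its 2 arrays read -0.36 and 0.13 there, a mean of -0.11 ± 0.34. With IE they read -0.42 and -0.012, a mean of -0.22 ± 0.29 or a fold of 0.860. Both IE arrays lay below 0, but only the first passed 0.75-fold. In the direct IE vs ME arrays the readings were -0.12 and 0.20 (0.041 ± 0.22), on both sides of 0.

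For Gria2, the probes gave means close to 0 with ME, and both arrays of each pair lay on opposite sides of 0. The probe printed 10 times (A_44_P289630) read 0.030 and -0.057 with ME, and the single-spot probe (A_44_P289627) 0.14 and -0.18. With IE the first read -0.043 and -0.073 (-0.058 ± 0.021) and the second 0.13 and -0.26 (-0.069 ± 0.27). The 2 probes thus had nearly the same mean with IE, but only 1 of them had both arrays on the same side. Between IE and ME they read -0.0060 and -0.027, and 0.072 and -0.050, which left both means within 0.017 of 0.

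Gria3, another AMPA subunit of forebrain neurons, was read by 1 probe at 0.060 and -0.080 in ME vs CONT and at 0.085 and -0.11 in IE vs CONT. The direct IE vs ME arrays gave 0.16 and -0.018 (0.070 ± 0.12). The arrays of each pair disagreed in sign in all 3 comparisons.

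Gria4 was read by 2 probes that differed in how well the arrays of a pair matched. Probe A_44_P349199, printed above beside Gria1, was the only member probe with both arrays on the same side of 0 in all 3 comparisons. It read -0.053 and -0.10 with ME (-0.076 ± 0.033) and -0.087 and -0.14 with IE (-0.11 ± 0.038). In IE vs ME it read 0.17 and 0.033 (0.099 ± 0.094), the opposite direction to that implied by the arrays against CONT. The second probe, A_44_P323349, read 0.070 and -0.12 with ME, 0.018 and -0.22 with IE, and -0.018 and 0.036 in IE vs ME.

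Grin1, the subunit that every NMDA receptor needs, had means within 0.022 of 0 for both probes against CONT. Whether the 2 probes read the same transcripts of Grin1 was not determined. Probe A_44_P240900 read -0.060 and 0.10 with ME and -0.16 and 0.20 with IE. Probe A_44_P536333 read 0.082 and -0.094 with ME and 0.11 and -0.084 with IE. The 2 probes were mirror images: where 1 read above 0 on an array the other read below it, on all 4 arrays against CONT. In IE vs ME they read 0.0037 and 0.13 (0.068 ± 0.091), and 0.24 and -0.18 (0.027 ± 0.30).

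Grin2a, whose product GluN2A predominates at mature hippocampal synapses, has the probe with the lowest mean of all member probes, A_44_P505902. It read -0.18 and -0.34 in IE vs CONT, a mean of -0.26 ± 0.11 or a fold of 0.836. The 10-spot probe of the same gene, A_44_P475240, read 0.12 and -0.27 there (-0.076 ± 0.27), so both probes lay below 0 on average and only 1 did so on both arrays. Averaged over its probes Grin2a was at -0.17, and Gria1, with its single probe, at -0.22. With ME the probes read 0.044 and -0.20, and 0.11 and -0.15. In IE vs ME all 4 readings were above 0, at 0.12 and 0.10 for the first (0.11 ± 0.010) and 0.22 and 0.0075 for the second (0.11 ± 0.15), which again is the direction opposite to that of the arrays against CONT.

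Grin2b, whose product GluN2B gives slower currents and is the main GluN2 subunit early in development, read -0.16 and 0.091 in ME vs CONT. In IE vs CONT it read -0.32 and 0.096 (-0.11 ± 0.30). The arrays of these pairs disagreed in sign. The direct arrays read 0.12 and 0.093 (0.11 ± 0.019), on the same side, and the mean was 0.086 when the raw signals were processed again with limma's normexp background correction and loess dye normalization, and 0.064 with loess and no background subtraction.

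Grin2c read -0.18 and 0.14 with ME (-0.018 ± 0.23), -0.13 and 0.17 with IE (0.018 ± 0.21), and -0.089 and 0.19 in IE vs ME (0.050 ± 0.20). The first array was below 0 and the swapped one above 0 in all 3 pairs, whichever pools were on them. Grin2d was kept on 1 of 4 arrays against CONT, the swapped IE vs CONT array, where it read 0.15. It therefore has no mean against CONT. Its direct IE vs ME arrays read 0.28 and 0.13, a mean of 0.20 ± 0.11. That was the highest of the members as the values were deposited, but after normexp and loess it was 0.079 and without background subtraction 0.058, below Grin2a with 0.12 in both.

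The dye part was larger than the mean for 11 of 12 member probes in ME vs CONT, for 8 of 12 in IE vs CONT and for 6 of 13 in IE vs ME. Over all probes well above background the shares were 71.4%, 71.8% and 73.3%. The dye part of a member kept its sign across all 3 pairs for 10 of the 12 probes with 3 values, 7 towards Cy5 and 3 towards Cy3. This was the case for 60.6% of 24716 probes well above background in all readings. The clearest examples were Gria1, with dye parts of -0.24, -0.21 and -0.16 with ME, with IE and between them, and Grin2c, with -0.16, -0.15 and -0.14. Both lean to Cy3. The printed Gria4 probe, with 36 bases in common with that of Gria1, had dye parts of 0.024, 0.027 and 0.066. The 2 probes of similar sequence thus leaned to different dyes. The Grin1 probes did the same within 1 gene, with -0.080, -0.18 and -0.064 for A_44_P240900 and 0.088, 0.095 and 0.21 for A_44_P536333.

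**Figure D2:**
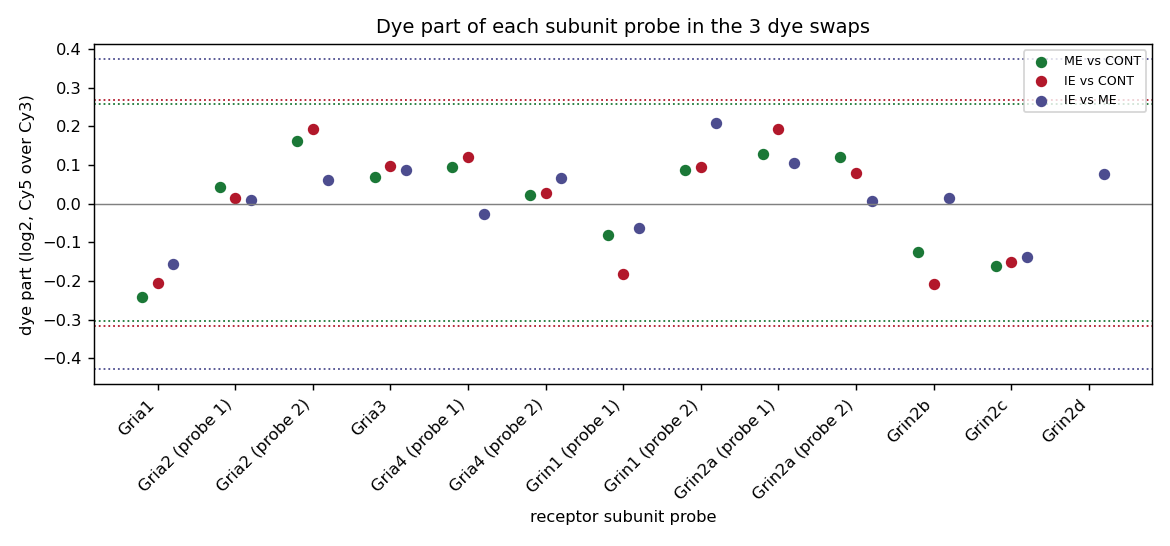
Dye part (y axis, log2, positive when Cy5 was brighter on average of the swapped arrays) of each subunit probe (x axis), with 1 point per comparison and dotted lines in the same colours enclosing the middle 90% of all probes well above background. Gria1 and Grin2c lie below 0 in all 3 swaps, at -0.24 to -0.16 and -0.16 to -0.14, and the Grin1 probes lie on opposite sides of 0.

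Probes printed 10 times per array show how much of this spread comes from single spots. This holds for 1 probe each of Gria1, Gria2, Grin1, Grin2a, Grin2b and Grin2c, and 8 to 10 spots per array were kept. The SD between spots of 1 array ran from 0.010 to 0.087, with a median of 0.027 over the 36 combinations of probe and array. The spots of the swapped arrays did not overlap in 14 of 18 probe and comparison pairs, beside 45.9% of the 789 pairs from all 263 probes printed 10 times. For Gria1 in ME vs CONT, the 10 spots lay between -0.40 and -0.31 (median -0.36) on the first array and between 0.091 and 0.16 (median 0.14) on the swapped array. For Grin2c the ranges were -0.20 to -0.16 and 0.10 to 0.19. The 4 overlapping pairs were those of Gria2 in IE vs CONT and IE vs ME and of Grin2b in ME vs CONT and IE vs ME.

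**Figure D3:**
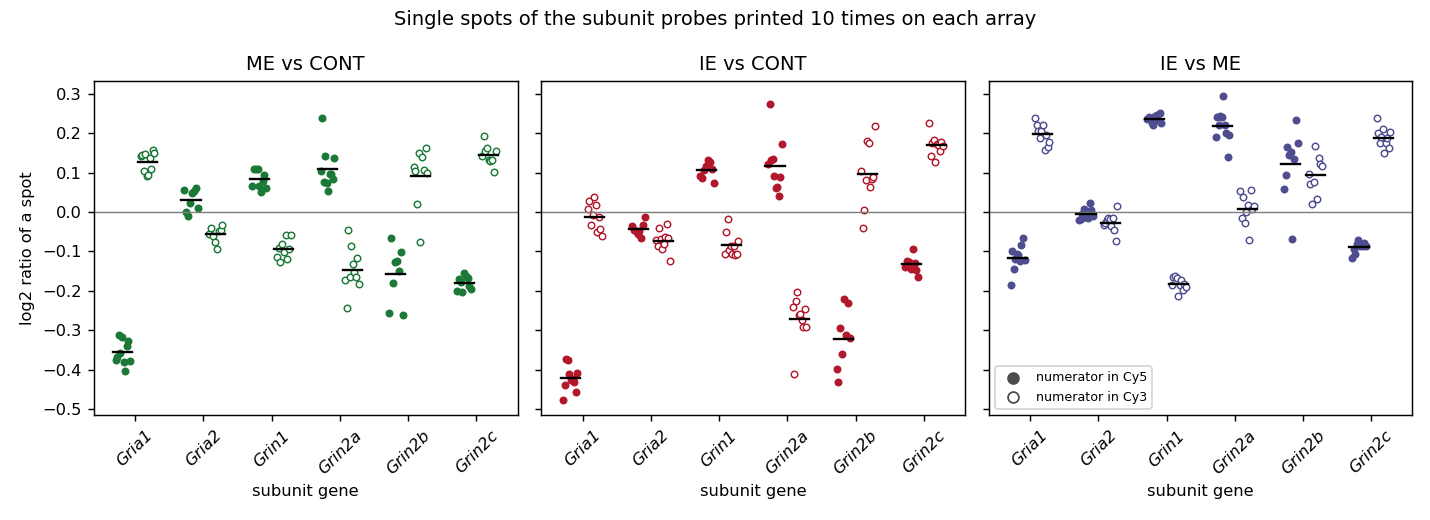
Log2 ratio of each kept spot (y axis) of the 6 subunit probes printed 10 times (x axis), with filled points for the array with the first-named pool in Cy5, open points for the swapped array and black bars for the mean of an array. The filled and open groups are apart for Gria1, Grin1, Grin2a and Grin2c in all 3 comparisons.

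The processed signals, which are background-subtracted and dye-normalized by the software, give the level of each probe in each pool in arbitrary units that cannot be set against another probe's. On the slide with CONT, Gria1 read 1507 to 1850 in the CONT pool (4 readings), 1446 to 1741 in the ME pool (2 readings) and 1364 to 1494 in the IE pool (2 readings). Grin2a probe A_44_P505902 read 704 to 810 in CONT, 707 to 731 in ME and 592 to 622 in IE, and the 10-spot Gria2 probe 7883 to 8072, 7761 to 8187 and 7493 to 7670. For these 3 probes the IE readings lay below all CONT readings, where 6.80% of all probes had IE and CONT readings that did not overlap in either direction. For the other 9 of 12 member probes the IE readings overlapped those of CONT. The ME readings overlapped those of CONT for all 12, and were apart for 6.98% of all probes. The other Grin2a probe (349 to 413 in IE, 380 to 445 in CONT) and the other Gria2 probe (7057 to 8810 and 7996 to 8902) were among those that overlapped, so that for neither gene did both probes separate the pools.

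The IE vs ME arrays are on another slide and give a separate hybridization of that contrast. They were taken to hold the same IE and ME pools, but the methods do not describe these arrays. For each probe, IE vs CONT minus ME vs CONT should equal the direct ratio if the pools were the same and the arrays had no error. For the subunits the direct ratio was higher for 12 of 12 probes, by 0.010 (Grin1, A_44_P536333) to 0.29 (Grin2a, A_44_P505902). The median direct ratio of the members was 0.059 and the median of the differences was -0.047. Over 24716 probes well above background in all readings, the direct ratio was higher for 50.1%, with medians of 0.0022 and 0.0021. The absolute gap had a median of 0.080 for members and 0.058 for all these probes. The 2 estimates agreed in sign for 4 of 12 members, Gria2 (A_44_P289630), both Grin1 probes and Grin2c, and for 56.5% of all these probes.

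Gria1 illustrates the disagreement. The arrays against CONT put it at -0.10 for IE relative to ME, and the direct arrays at 0.041. For Grin2b the values were -0.079 and 0.11, and for Gria4 A_44_P349199 they were -0.038 and 0.099. The slides also differ in the version of the extraction software, which was later for IE vs ME, and were scanned at different times. Slide, software, comparison and any difference between the pools used cannot be told apart, and the part of each in the gap was not tested. The subunit probes are not independent of each other, so 12 of 12 is a description.

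**Figure D4:**
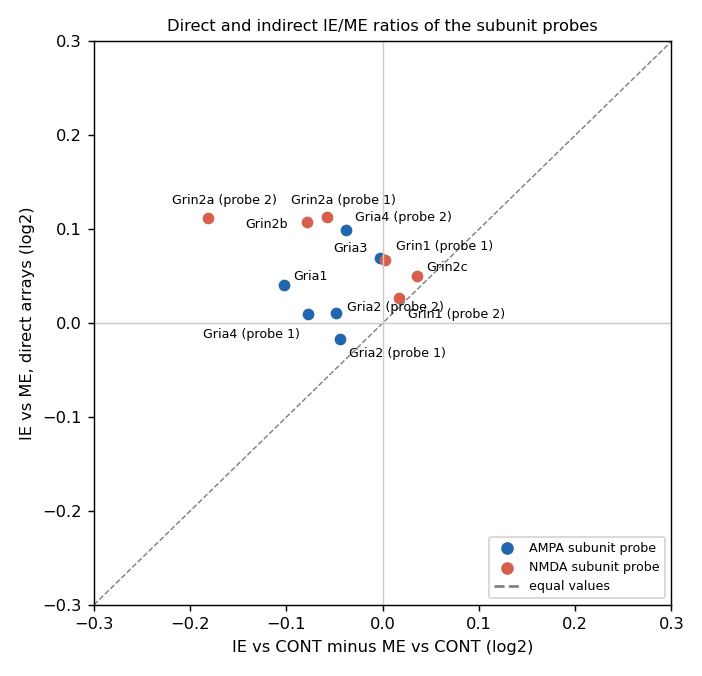
Direct log2 ratio of IE over ME (y axis) against IE vs CONT minus ME vs CONT (x axis, log2) for the 12 subunit probes with all values, in blue for AMPA and red for NMDA subunits, with a dashed line of equal values. All 12 points lie above the line, Grin2a A_44_P505902 (probe 2) farthest, at -0.18 on the x axis and 0.11 on the y axis.

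Forebrain and cerebellar subunits were compared by the median of their gene values, each the mean of both arrays. The ± of a difference is here the SD of the differences found on the single arrays. Their mean need not equal the difference given, which comes from the medians of the gene values. In ME vs CONT the median of the 5 forebrain genes (Gria1, Gria2, Gria3, Grin2a, Grin2b) was -0.034. On the first array alone it was 0.060, and on the swapped one -0.080. The median of the 2 cerebellar genes (Gria4, Grin2c) was -0.034, with -0.086 and 0.017 on the single arrays. Cerebellar minus forebrain came to -0.00069 ± 0.17. In IE vs CONT the medians were -0.11 and -0.045, a difference of 0.067 ± 0.11, and in IE vs ME they were 0.070 and 0.052, a difference of -0.018 ± 0.13. In all 3 comparisons the difference was smaller than the SD between arrays and changed sign between the arrays of the pair. Against CONT, with either intensity, the forebrain median was the value of Grin2b. Its processed signal was 129 to 148 in CONT and 117 to 138 in IE on that slide. After normexp and loess the forebrain median in IE vs CONT was -0.074 and the difference 0.030. The median of all probes well above background was -0.0025, 0.0018 and 0.0028.

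Of 9 listed cerebellar marker genes, 6 were on the array with 1 probe each. Gabra6, the GABA-A receptor subunit of cerebellar granule cells, was the 1 called marker, in ME vs CONT. Its processed signal was 35.9 and 26.8 in ME against 4.76 and 4.30 in CONT, a pool in which neither array read it well above background. The bound takes for the dim pool the higher of its own value and the dimmest signal well above background. For CONT this was its own value, which put ME 1.18-fold higher. In IE vs CONT neither pool read above background. In the direct arrays Gabra6 was well above background on 1 array of ME and none of IE. The bound, with IE also at its own value, put ME 1.22-fold higher there. Pcp2, a Purkinje cell gene, read 0.41 and 0.21 with ME, -0.019 and 0.058 with IE, and -0.59 and -0.53 in IE vs ME, the largest difference of the list there among probes well above background. Car8, also of Purkinje cells, was the largest of such probes in ME vs CONT with 0.27 and 0.81, and Slc1a6, their glutamate transporter, in IE vs CONT with -0.14 and -0.11. The summed signal of the list was 676 and 685 in ME against 565 and 525 in CONT, and 529 and 592 in IE against 570 and 580 in CONT. Grin2c, which granule cells also express, read -0.18 and 0.14 in the same ME pool. What cerebellar RNA contributed to any subunit's ratio was not tested.

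**Figure D5:**
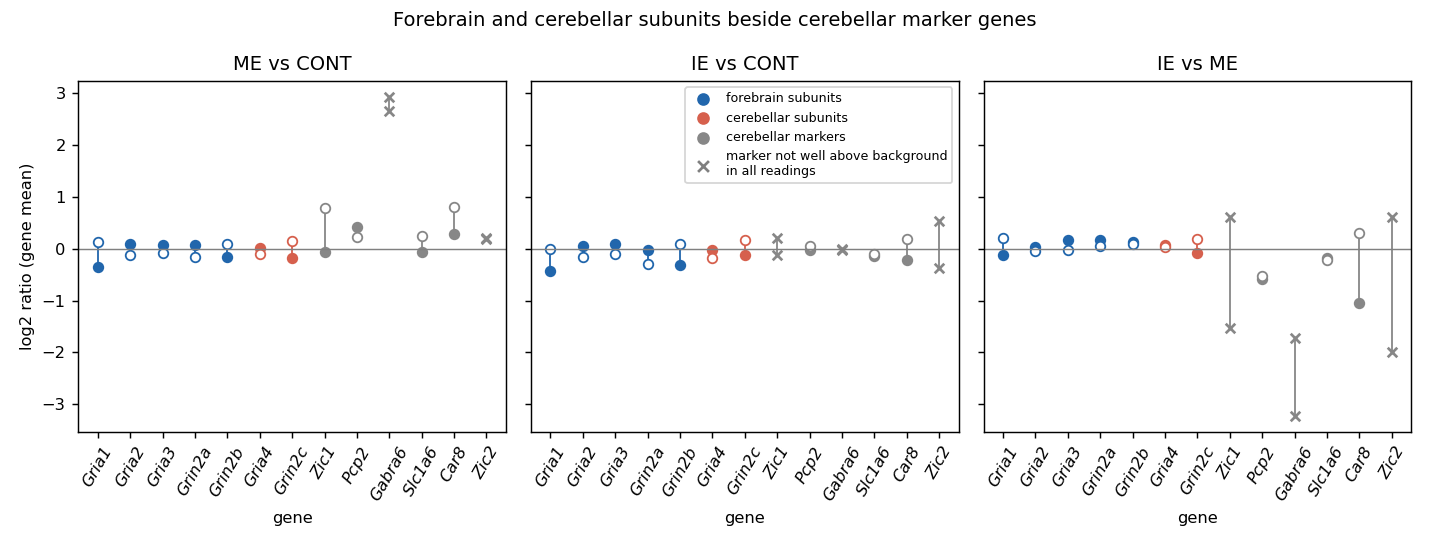
Log2 ratio (y axis, mean over the probes of a gene) of forebrain subunits, cerebellar subunits and cerebellar marker genes (x axis), with a filled point for the array with the first-named pool in Cy5 and an open point for the swapped array; crosses mark probes not well above background in all readings. The forebrain and cerebellar subunits stay within -0.42 and 0.20, while Gabra6 is near 2.9 and 2.6 in ME vs CONT with a CONT signal not above background.

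Of 9 listed choroid plexus genes, 8 were on the array with 9 probes, and the called probes were those of Kcnj13, Sostdc1 and Ttr with ME, of the same 3 genes and Otx2 with IE, and of Sostdc1 and Ttr in IE vs ME. Ttr, which encodes the thyroid hormone carrier that this epithelium secretes, had means of 0.91 ± 0.24, 2.51 ± 0.35 and 1.92 ± 0.071. Sostdc1 had 0.69 ± 0.14, 2.76 ± 0.49 and 2.03 ± 0.68, Kcnj13 had 1.73 ± 0.62 with ME and 2.09 ± 0.23 with IE, and Otx2 had 0.89 ± 0.065 with IE. The summed signal of the 9 probes was 1202 and 1188 in ME against 676 and 756 in CONT, and 4179 and 3884 in IE against 794 and 1003. Whether RNA of this tissue lowered the share of neuronal RNA in the IE pool was not tested. The hippocampal neuron markers had medians of -0.034, -0.0036 and 0.075 over 7, 7 and 6 probes well above background, with 0 called. Their largest differences were -0.068 ± 0.25 for Wfs1 with ME, -0.081 ± 0.12 for Zbtb20 with IE and 0.20 ± 0.33 for Bcl11b in IE vs ME. Of the thalamic markers, 0 were called, and Prkcd had the largest difference with ME (0.36 ± 0.13) and in IE vs ME (-0.28 ± 0.21), Gbx2 with IE (0.19 ± 0.32).

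The other genes around these receptors were taken from 6 lists of 61 genes, 54 of them on the array with 69 probes. They cover further NMDA-related and delta subunits, kainate receptors, metabotropic glutamate receptors, AMPA receptor auxiliary and clustering proteins, postsynaptic scaffolds, and kinases and phosphatases that act on the receptors. None of the 69 probes was called in any comparison, with or without the p threshold. Means of those well above background (62, 62 and 59 probes) ran from -0.22 to 0.43, from -0.25 to 0.21 and from -0.18 to 0.20. The subunits' own ranges fell inside these except for the lowest value with IE, that of Grin2a probe A_44_P505902, and for Grin2d in IE vs ME, which equalled the highest to within 0.001.

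In each list the gene of the single probe with the largest difference is named, where it is reported, and other probes of that gene need not agree. Among metabotropic receptors it was Grm8, a presynaptic inhibitory receptor, with 0.42 and 0.44 in ME vs CONT (0.43 ± 0.015) at A_44_P186818. This was the highest of all 6 lists with ME, and both arrays lay on the same side. Another Grm8 probe (A_44_P323320) read 0.32 and 0.078 with ME. It had the largest difference in IE vs ME (-0.18 ± 0.086), where A_44_P186818 read -0.25 and -0.10. With IE, A_44_P323320 read 0.13 and -0.18, and A_44_P186818 read 0.085 and 0.12. Among kinases and phosphatases, Ppp3ca, a catalytic subunit of calcineurin, which dephosphorylates synaptic proteins in long-term depression, read -0.24 and -0.26 with IE (-0.25 ± 0.013) at A_44_P221588, and 0.13 and -0.037 at its other probe, A_44_P372439. Fyn, a kinase that phosphorylates GluN2B, was the largest of that list with ME (-0.085 ± 0.31) and in IE vs ME (0.14 ± 0.24), with arrays of opposite sign in both.

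Among the scaffolds, Homer1, which links metabotropic receptors to the postsynaptic density, read -0.34 and -0.10 with ME (-0.22 ± 0.17) at A_44_P380835. Its other probe, A_44_P148865, read 0.0045 and -0.076 (-0.036 ± 0.057). Homer3 led that list with IE, at 0.11 and 0.087, and Shank2 in IE vs ME (0.18 ± 0.79), the latter with 0.74 on 1 array and -0.38 on the other. Of the AMPA auxiliary and clustering proteins, Grip1, a PDZ protein that binds GluA2, had -0.11 ± 0.028 with ME at A_44_P374803, while its other probe, A_43_P12718, read 0.076 and -0.061. The transmembrane regulatory proteins Cacng7 and Cacng8 led with IE (0.21 ± 0.13) and in IE vs ME (0.20 ± 0.21). At the leading probes both arrays of each of these 3 pairs lay on the same side of 0, and the sizes were below the call limits.

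For kainate receptors and the delta subunits, most of the leading readings differed in sign between arrays. Grik4 led the kainate list with ME (-0.062 ± 0.38), and Grik1 with IE (-0.11 ± 0.037) and in IE vs ME (0.031 ± 0.16). The delta subunit Grid1 led its list in IE vs ME with -0.36 and 0.64 (0.14 ± 0.71), where the gap between the arrays was several times the mean.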

How the data were processed

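The 6 arrays were scanned and extracted by the authors with Agilent Feature Extraction, per the file headers version 9.5.3.1 on the slide with CONT and 11.0.1.1 on the IE vs ME slide, while the submitters' processing notes name the first. The deposited log10 ratio is Cy5 over Cy3 of a spot after the software's background subtraction and LOWESS dye normalization, and the deposited p-value comes from its error model. The deposited intensity values are raw medians and processed signals. In the value table of the authors, each spot has log10 of its processed Cy5 over Cy3 signal, with the sign of the swapped array turned. It matched the scanner files within 0.001 for 100% of spots of each array.

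Control features (1639 per array) and spots marked as non-uniform or population outliers (92 to 302 per array) were left out. Kept spots were averaged and turned to log2, and p was their median. A gene's value is the mean of its probes. The bound for Gabra6 was set per channel after normexp, loess and Aquantile normalization. Probe names were carried to the IE vs ME slide, whose header names build rn4, through the probe identifier. Members were all named with every probe. Of each other list, every called gene and, per comparison, the gene with the largest mean among probes well above background in all readings were named, and Gabra6 in addition. Some genes that this rule names are not reported here. The members and lists were chosen with earlier results of these data known. No test across rats was made. The call rule and normalizations were tested on simulated data. Alternatives were other background corrections (normexp, offset 50, with loess in limma 3.58.1, R 4.3.3; no subtraction with loess), the value table, outlier spots kept, centring, 1 array alone, bright probes only, the brightest probe per gene, no p threshold and a symmetric 1.5-fold range. Other tools were Python 3.11.15, pandas 2.3.3 and matplotlib 3.10.9.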

Additional observations from a re-analysis of the deposited data

How the results depend on the processing

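The count of called members was 0 in all 3 comparisons under each alternative: without the p threshold, at 1.5-fold on each array, with bright probes only, after normexp and loess, with loess and no background subtraction, with the authors' value table, with outlier spots kept and after centring. The stricter 1.5-fold range and the bright probes only could not raise a count of 0, and the value table repeats the deposited ratios. Members found also by RefSeq accession numbered 13, as by name. Of the 81 alternatives for the forebrain and cerebellar medians and their difference, 78 moved the value by less than the SD between arrays, and of 225 alternatives for single genes 218 did. Part of these counts was fixed in advance. For a single gene, 1 array of a pair always lies within their SD of the mean. The value table and the bright probes only repeat the main values. With 1 array of the pair alone, the forebrain median ran from -0.080 to 0.060 in ME vs CONT, from -0.11 to -0.031 in IE vs CONT and from 0.056 to 0.12 in IE vs ME. The cerebellar median ran from -0.086 to 0.017, from -0.084 to -0.0067 and from -0.0076 to 0.11, and the difference from -0.15 to 0.097, from -0.053 to 0.10 and from -0.13 to 0.056. The largest move of a gene was that of Gria1 in ME vs CONT, from -0.11 to -0.36 with the first array alone. Grin2d in IE vs ME was 0.079 after normexp and loess and 0.058 without background subtraction, against 0.20, and Grin2b there was 0.086 and 0.064, against 0.11; the cause was not tested. No paired analysis was possible because the groups hold a single pool each, with nothing to pair. The kept readings of the members were all well above background by the software's own test. One pool per group and 1 dye swap per comparison limit every value, and the spread between rats is not in any value given here.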

Other observations

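The pools, taken to be the same on the 2 slides, gave very different signals there for some subunit probes. The Grin2d probe read 3571 and 3970 in CONT and IE on its 1 kept array of the first slide, and 116 to 139 in ME and 140 to 152 in IE on the second. Its 3 left-out spots on the first slide had ratios of 0.14 and 0.070 in ME vs CONT and 0.090 in IE vs CONT, with processed signals of 3325 to 3715. The 10-spot Gria2 probe read 7493 to 8187 in ME and IE on the first slide and 3291 to 3354 on the second. The 10-spot Grin1 probe was the brighter on the second slide, with 8967 to 11604 against 4557 to 5085 on the first.

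Cnih2, an auxiliary protein of AMPA receptors in the hippocampus, had the dye pattern of Gria1 in a stronger form. Its readings were -0.58 and 0.66 in ME vs CONT, -0.57 and 0.61 in IE vs CONT, and -0.25 and 0.40 in IE vs ME. The means were 0.037, 0.020 and 0.072. It was chosen after its values were seen.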
